A study of Caenorhabditis elegans with 2 samples.

Results

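The proteasome core and regulatory particle genes of Caenorhabditis elegans were examined for chromatin association of REPO-1, the worm ortholog of the SF3a splicing subunit SF3A2. The members were the protein-coding genes of the Ensembl annotation whose names start with pas-, pbs-, rpt- or rpn- and a number, 33 of 19973 in all. They comprised 7 alpha and 7 beta subunit genes of the core, 6 genes of the ATPase subunits and 13 of the non-ATPase subunits. The rule uses gene names and no peak values. The members lay on the autosomes, 10 on chromosome I, 7 on II, 8 on III, 3 on IV and 5 on V, and X had 0.

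The proteasome degrades proteins that carry ubiquitin. Its core particle is a barrel of stacked rings, in which outer alpha subunits gate the entrance and inner beta subunits cut the substrate. The regulatory particle caps the barrel: a ring of ATPases unfolds the substrate, and the non-ATPase subunits bind ubiquitin, remove it and hold the particle together. In C. elegans the transcription factor SKN-1 is known to raise expression of proteasome genes when the proteasome is impaired. REPO-1 belongs to the U2 snRNP, which recognises the branch site of introns during splicing.

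ChIP-seq had been done in 1 group with 2 biological replicates, each of whole young adult worms of mixed sex, 53 hours after synchronisation as starved L1 larvae. The strain, OP688, carries the unc-119(tm4063) mutation on chromosome III and the insertion wgIs688, from which REPO-1 is expressed with a GFP-FLAG tag at its C-terminus. Anti-GFP antibody pulled down the tagged protein. Both replicates share this genotype, no strain without the tag formed a group here, and signal from whole animals cannot be assigned to a tissue.

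Each deposited list gives regions with a summit, the position of highest enrichment, and a signal value of the authors' own scale, used here only for ranking within a list (rank 1 is the strongest). The pooled list, called on both replicates together with no threshold, held 30000 summits. The replicated list, obtained from it by the irreproducible discovery rate (IDR), held its 1789 strongest summits, with signals from 131.5 to 1217.6 and a median of 173.3. Read counts are not part of these lists, so the depth is unknown. A summit counted for a gene's 5′ end within 500 bp before and 200 bp after the start of any of its transcripts. For the 3′ end the limits were 200 bp before and 500 bp after the end of any transcript. The single group leaves no comparison between samples to test, and counts of members are read against the same count over all protein-coding genes. A rank in replicate 1 or 2 is that of the best summit at the same gene end, which can lie at another position than the pooled one. No set test was made, so differences between the shares below were not tested.

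REPO-1 summits were found more often at the 3′ ends of proteasome genes than at their 5′ ends. At the 3′ end, 12 of 33 members (36.4%) had a summit of the replicated list, against 4.48% of all protein-coding genes. At the 5′ end the count was 3 of 33 (9.09%), against 3.49% of all protein-coding genes. In the pooled list, 30 of 33 members (90.9%) had a 3′-end summit and 22 (66.7%) a 5′-end summit, while 30.5% of all protein-coding genes had one at the 3′ end and 25.5% at the 5′ end. Where either end had a pooled summit, the 3′ end held the stronger one in 27 of 32 members (84.4%) and in 57.1% of 8298 protein-coding genes. The 5′ summit was the stronger one in pas-5, pbs-3, rpn-3, rpn-10 and rpn-11. The strongest 3′-end summits belonged to the beta subunit gene pbs-2 (rank 108), the ATPase gene rpt-1 (rank 132), and the non-ATPase genes rpn-3 (rank 206) and rpn-8 (rank 240).

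The 3′-end summits lay mostly past the gene, between 200 and 400 bp beyond its end. Of the 12 members with a replicated 3′-end summit, 10 had it downstream of the end and 8 between 200 and 400 bp. The distances ran from -115 bp (inside rpn-7) to 472 bp (past rpn-11), with a median of 271 bp. For the 894 protein-coding genes with a replicated 3′-end summit the median was 209 bp, and 41.5% lay between 200 and 400 bp. Of these genes 87.6% had it downstream of the end, against 83.3% of the 12 members. The window itself reaches 500 bp past the end but only 200 bp before it. In the pooled list the members had 45.5 summits per 100 genes in the bin from 200 to 300 bp past the outermost 3′ end and 27.3 in the next 100 bp, against 6.85 and 6.43 for all protein-coding genes. Beyond 500 bp the members had 0 summits in the next 100 bp, against 4.07 per 100 protein-coding genes. In each bin of 100 bp from 600 to 900 bp they had 3.03 per 100 genes, against 3.24, 3.27 and 2.83. A narrow window, 100 bp upstream to 200 bp downstream of the 3′ end, held a replicated summit in only 2 of 33 members, against 2.02% of all protein-coding genes.

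**Figure D1:**
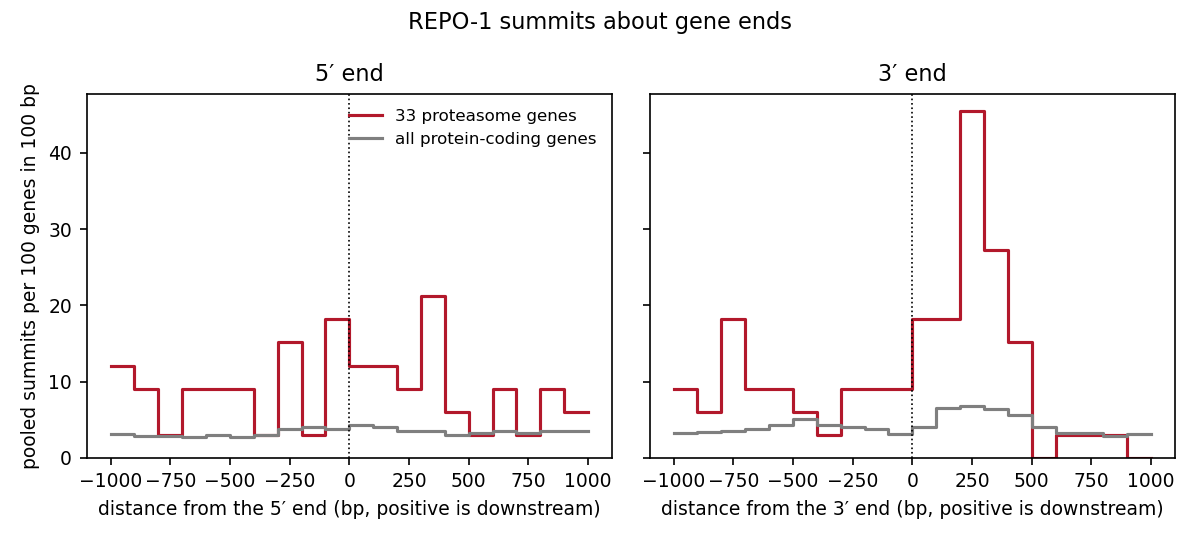
Summits of the pooled list per 100 genes (vertical axis) in bins of 100 bp about the outermost 5′ end (left) and 3′ end (right), for the 33 proteasome genes in red and all protein-coding genes in grey. The proteasome line peaks at 45.5 in the bin from 200 to 300 bp past the 3′ end, where all protein-coding genes have 6.85.

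The reference sequences at some of the replicated summits of members are printed below. Each is read from the RefSeq copy of WBcel235 (the ce11 assembly) on the strand of the proteasome gene, 5′ to 3′, and the capitals mark the 11 bases centred on the summit. Stretches that overlap an annotated UTR were shortened or left out. The rpn-3 pair flanks 1 gene, with a summit before its start (chrIII:8447099-8447199) and another just past its end (chrIII:8449352-8449452). The rpn-11 pair likewise has a summit at the start (chrII:4044547-4044604, minus strand) and one past the end, in an intron of the gene pqn-48 on the other strand (chrII:4042533-4042633, minus strand). The rpt-1 summit lies in the gap before the next gene (chrV:11980234-11980334, minus strand). The pas-7 summit lies in coding sequence of lact-2 on the other strand (chrII:10098470-10098570, minus strand).
rpn-3, 5′ end: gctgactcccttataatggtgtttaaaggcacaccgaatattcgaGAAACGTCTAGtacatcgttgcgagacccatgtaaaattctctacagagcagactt
rpn-3, 3′ end: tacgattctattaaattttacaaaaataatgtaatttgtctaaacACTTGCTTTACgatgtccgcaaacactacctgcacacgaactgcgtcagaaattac
rpn-11, 5′ end: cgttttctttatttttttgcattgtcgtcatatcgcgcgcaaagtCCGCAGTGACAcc
rpn-11, 3′ end: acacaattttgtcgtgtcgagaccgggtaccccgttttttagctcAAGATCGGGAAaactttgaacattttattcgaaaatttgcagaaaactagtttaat
rpt-1, 3′ end: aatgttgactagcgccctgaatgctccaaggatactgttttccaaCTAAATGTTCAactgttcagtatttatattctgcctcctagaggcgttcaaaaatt
pas-7, 3′ end: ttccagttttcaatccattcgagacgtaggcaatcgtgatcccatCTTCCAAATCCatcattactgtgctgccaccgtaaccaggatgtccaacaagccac

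The share of G and C in the 101 bases about the best replicated summit was 32.7% to 50.5% (median 37.1%) for the 12 members at the 3′ end, against a median of 41.6% over the 748 such summits of all protein-coding genes and 45.5% over all 1789 replicated summits. For the 3 members at the 5′ end the values were 42.6%, 47.5% and 48.5%. The letters TTTCAG, which match the usual end of worm introns, were present on either strand in 2 of 12 of the 3′-end stretches (16.7%) and in 16.2% of the 748. A match or its absence describes these letters only.

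Among the alpha subunit genes of the core, which form the gate, 2 of 7 had a replicated 3′-end summit. The pas-3 summit lay 305 bp past the gene (chrI:5104587-5105022, signal 202.3) and ranked 630, 660 in replicate 1 and 949 in replicate 2. It was inside an intron of chp-1, the next gene on the same strand, 106 bp from a start of chp-1, and within 200 bp of the non-coding gene Y110A7A.23. The pas-7 summit (chrII:10098302-10098737, signal 173.8) lay 262 bp past the end, in a coding exon of the convergent gene lact-2, and ranked 887, with 1322 in replicate 1 and 701 in replicate 2. Next came pas-4, outside the replicated list at pooled rank 2583, 350 bp past its end. The best summit at that end ranked 1510 in replicate 1, 376 bp past the end, and 5175 in replicate 2, 126 bp past it. The other alpha genes with a pooled 3′-end summit were pas-1 (rank 4182), pas-2 (rank 4921) and pas-6 (rank 10107), and pas-5 had no summit at that end in any of the lists. At the 5′ end the best alpha gene, pas-5, was at rank 7139 in the pooled list, 370 bp upstream, followed by pas-6 at 11943 and pas-1 at 23547, all well below the replicated list. The best 5′-end summit of pas-1 ranked 10255 in replicate 1, 62 bp inside the gene, and 1865 in replicate 2, 171 bp inside it. A stronger pooled summit of pas-1, at rank 1849, lay 259 bp inside the gene, outside the window. The other alpha genes, pas-2, pas-3, pas-4 and pas-7, had none there in the pooled list.

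Of the 7 beta subunit genes, pbs-2 and pbs-4 had a replicated 3′-end summit and all 7 had a pooled one. PBS-1, PBS-2 and PBS-5 are the subunits with protease activity. The pbs-2 summit (chrI:12966880-12966991, signal 394.3) lay 280 bp past the gene and ranked 123 in replicate 1 and 100 in replicate 2. This was the strongest summit of any member in the replicated list. It also lay 141 bp upstream of tba-2, an alpha-tubulin gene on the same strand that starts 420 bp after pbs-2 ends. The pbs-4 summit (chrI:3909875-3910310, signal 143.2) lay 392 bp past the end, in a coding exon of the convergent gene mrrf-1, and ranked 1421, with the replicates apart at 5717 in replicate 1 and 680 in replicate 2. The catalytic genes pbs-1 (pooled rank 2544, 171 bp past the end) and pbs-5 (rank 2699, 255 bp) fell below the replicated list. The best 3′-end summit of pbs-1 ranked 6023 in replicate 1, 197 bp past the end, and 1334 in replicate 2, 342 bp past it. That of pbs-5 ranked 4161 in replicate 1, 387 bp past the end, and 1788 in replicate 2, 221 bp past it. pbs-7, pbs-6 and pbs-3 followed at pooled ranks 4609, 5556 and 17505. At the 5′ end, pbs-7 (rank 8231) and pbs-3 (rank 8583) led, followed by pbs-2 (rank 25112), pbs-6 (27558), pbs-4 (27732) and pbs-1 (28794), and pbs-5 had none.

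**Figure D2:**
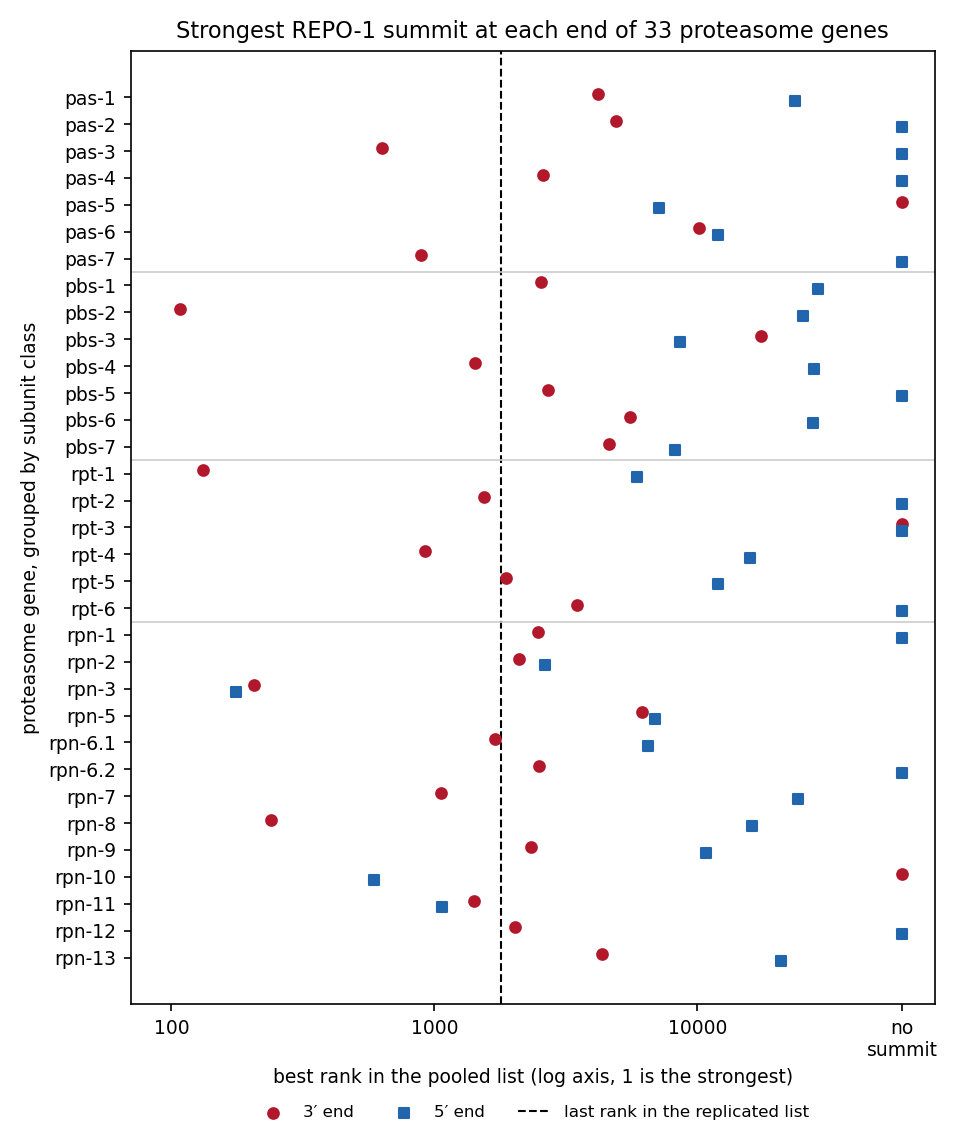
Best rank in the pooled list (horizontal log axis, 1 is the strongest) of the summit at the 3′ end (red circles) and the 5′ end (blue squares) of each of the 33 proteasome genes, grouped by subunit class. Points left of the dashed line, at rank 1789, belong to the replicated list: 12 circles and 3 squares. Genes with no summit at an end are placed at the right edge.

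The ATPase genes, whose products form the unfolding ring, had replicated 3′-end summits in 3 of 6 cases: rpt-1, rpt-4 and rpt-2. The rpt-1 summit (chrV:11980066-11980501, signal 363.7) lay 250 bp past the end in the 810 bp gap before snr-4, an Sm protein gene on the same strand. The best 3′-end summit ranked 113 in replicate 1, 417 bp past the end, and 200 in replicate 2, 433 bp past it. The non-coding gene C52E4.14 and the snRNA gene T11F9.15 lay within 200 bp of it. The rpt-4 summit (signal 171.4) ranked 919, with 984 in replicate 1 and 726 in replicate 2. It lay 214 bp past rpt-4 and 11 bp before the start of F23F1.10, the next gene on the same strand after a gap of 224 bp. The rpt-2 summit (chrV:6015546-6015981, signal 138.9) lay 295 bp past the end in an exon, outside coding sequence, of the convergent gene fos-1, a Fos-family transcription factor gene, with the snoRNA gene F29G9.19 within 200 bp. Its replicates differed, with ranks of 6845 in replicate 1 and 490 in replicate 2. rpt-5 was the first member below the replicated list, at rank 1865 (signal 129.7), against 1697 (signal 134.1) for the last one inside it, rpn-6.1. rpt-6 followed at rank 3490. rpt-3 was the only member with no pooled summit at either end, although replicate 1 had one at its 3′ end (rank 15109) and both replicates had weak ones at its 5′ end (ranks 13828 and 6463). The best 5′-end summits of ATPase genes were those of rpt-1 (rank 5876), rpt-5 (rank 11966) and rpt-4 (rank 15914), and rpt-2 and rpt-6 had none.

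Non-ATPase subunit genes held all 3 replicated 5′-end summits and 5 of the 12 at the 3′ end. RPN-3 is a scaffold subunit of the lid, and its gene carried strong summits at both ends. The 5′ summit (chrIII:8446931-8447366, signal 333.6) lay 204 bp upstream and ranked 176, with 202 in replicate 1 and 192 in replicate 2. It sits in the 443 bp gap between rpn-3 and the divergent gene hsp-110, an Hsp110 chaperone gene, 240 bp from the start of hsp-110, with the non-coding gene C30C11.14 within 200 bp. The 3′ summit (chrIII:8449338-8449504, signal 314.1) lay 56 bp past the end and 355 bp upstream of mrpl-32, a mitochondrial ribosomal protein gene on the same strand. It ranked 206, with 219 in replicate 1 and 254 in replicate 2, so both ends of rpn-3 were among the strongest summits in each replicate. RPN-11 is the deubiquitinase of the lid. Its 5′ summit (chrII:4044336-4044771, signal 160.7) lay 8 bp upstream of the start and ranked 1073, with 948 in replicate 1 but 2593 in replicate 2. This summit also lay 217 bp past the 3′ end of K07D4.2, the same-strand gene before rpn-11 after a gap of 224 bp. The 3′ summit of rpn-11 (chrII:4042365-4042800, signal 143.4), 472 bp past the end, ranked 1418. The best summit at that end ranked 1329 in replicate 1 and 1052 in replicate 2. The ubiquitin receptor gene rpn-10 had its summit at the 5′ end, 181 bp inside the gene in a coding exon (chrI:10732025-10732460, signal 208.8, rank 588, with 354 in replicate 1 and 1581 in replicate 2). The same summit lay 300 bp past the 3′ end of mrpl-9, the same-strand gene before rpn-10 after a gap of 118 bp. Position alone cannot assign it to 1 of these genes. The 3′ end of rpn-10 had no pooled summit. rpn-10 was the single member with a replicated summit at the 5′ end alone (3.03%, against 2.83% of all protein-coding genes). At the 3′ end alone there were 10 members (30.3%, against 3.82%), and 2 had summits at both ends (6.06%, against 0.656%).

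The remaining non-ATPase genes with replicated 3′-end summits were rpn-8, rpn-7 and rpn-6.1. RPN-8 pairs with RPN-11 in the lid. The rpn-8 summit (chrI:4177336-4177771, signal 294.4) lay 283 bp past the end, in a coding exon of the convergent gene R12E2.13, and ranked 240, with 166 in replicate 1 and 408 in replicate 2. The replicated-list summits of rpn-7 and rpn-6.1, both lid scaffold genes, lay inside the transcribed gene. That of rpn-7 (chrIV:9318299-9318734, signal 161.4, rank 1062) was 115 bp before the end, where the convergent gene nemt-1 overlaps it, with ranks of 881 in replicate 1 and 1185 in replicate 2. That of rpn-6.1 (chrIII:6958975-6959410, signal 134.1) was 83 bp before the end, 299 bp past the end of the convergent gene let-711. The best 3′-end summit of rpn-6.1 ranked 1223 in replicate 1, 228 bp past the end, and 2093 in replicate 2, 81 bp before it. The paralog rpn-6.2 ranked 2503, with its summit 31 bp past the end, and had no pooled summit at the 5′ end, where rpn-6.1 was at rank 6465. Below the replicated list at the 3′ end stood rpn-12 (rank 2027), rpn-2 (2103), rpn-9 (2328), rpn-1 (2476), rpn-13 (4353) and rpn-5 (6138). The rpn-1 summit was strong in replicate 1 (rank 1099), whereas replicate 2 had none at that end. The replicated list held another rpn-1 summit, at rank 1642, 664 bp past the end and so outside the window. Upstream, at the 5′ end, rpn-2 (rank 2632), rpn-6.1 (rank 6465) and rpn-5 (rank 6877) followed the 3 replicated genes, and rpn-1 and rpn-12 had no pooled summit there.

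The replicates named overlapping sets of members at the 3′ end. Among the 1789 strongest of replicate 1 a 3′-end summit was present for 13 of 33 members (4.48% of all protein-coding genes), and among those of replicate 2 for 15 of 33 (4.46%). Both lists named 9 members, all of them in the replicated list: pas-3, pas-7, pbs-2, rpt-1, rpt-4, rpn-3, rpn-7, rpn-8 and rpn-11. Of the other replicated ones, rpn-6.1 was among the 1789 strongest of replicate 1 only, and pbs-4 and rpt-2 among those of replicate 2 only. The other replicate had a weaker 3′-end summit at each of these genes. A further 7 members were within the strongest of 1 replicate but not in the replicated list, namely pas-4, rpn-1 and rpn-12 in replicate 1 and pbs-1, pbs-5, rpn-2 and rpn-9 in replicate 2. At the 5′ end the counts were 3 in replicate 1 (3.27% of all protein-coding genes) and 2 in replicate 2 (3.41%), with rpn-3 and rpn-10 in both. The replicated list derives from both replicates, so it is not independent of either.

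**Figure D3:**
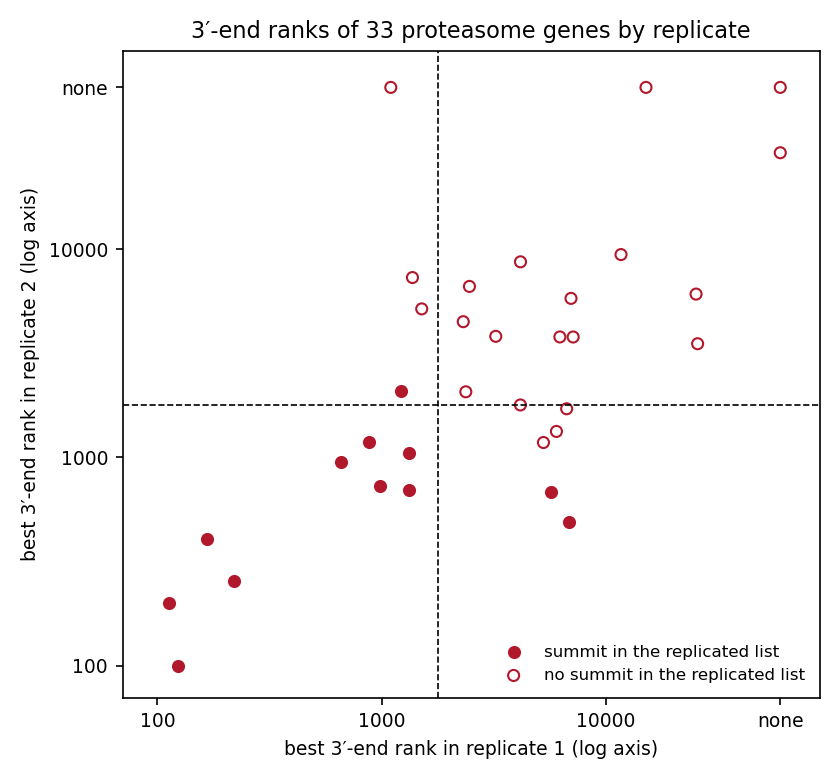
Best rank of a 3′-end summit in replicate 1 (horizontal) and replicate 2 (vertical), both on log axes, for the 33 proteasome genes. Filled circles are the 12 genes with a summit in the replicated list, dashed lines mark rank 1789, and genes with no summit in a list are placed at "none". The 4 strongest, pbs-2, rpt-1, rpn-8 and rpn-3, rank between 100 and 408 in both replicates.

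Going down the pooled list, the 3′ ends of proteasome genes filled early and the 5′ ends late. The 5000 strongest summits reached the 3′ end of 26 of 33 members (78.8%), against 10.5% of all protein-coding genes, and the 5′ end of 4 (12.1%), against 7.51%. The 10000 strongest reached 28 members at the 3′ end (84.8%), against 16.4% of all protein-coding genes, and 10 at the 5′ end (30.3%), against 12.1%. Members were shorter than other genes, with a median length of 1490 bp (932 to 4010) and a median of 3 introns, against medians of 2027 bp and 4 introns over all protein-coding genes. Over the 10812 autosomal protein-coding genes within the same range of lengths, 4.73% had a replicated 3′-end summit and 3.32% a 5′-end one, and 30.0% and 23.7% had a pooled one.

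**Figure D4:**
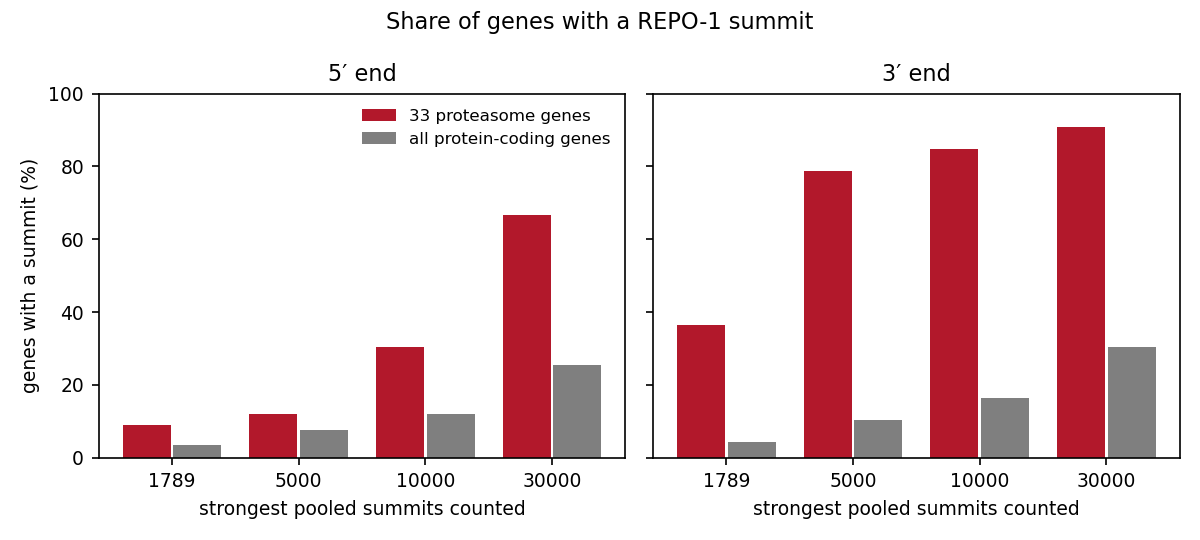
Share of genes (vertical axis, %) with a summit at the 5′ end (left) and the 3′ end (right) when the strongest 1789, 5000, 10000 or all 30000 pooled summits are counted, for the 33 proteasome genes in red and all protein-coding genes in grey. At the 3′ end the share of proteasome genes is 36.4% at 1789 summits and 78.8% at 5000.

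Most proteasome genes end close to another gene, so their 3′-end windows hold parts of neighbours. The next protein-coding gene lay on the same strand for 15 members and was convergent for 18, and for 11 of the 15 and 17 of the 18 it started, ended or overlapped within 500 bp. Over all protein-coding genes it did so for 4000 of 10965 with a same-strand next gene and 5754 of 9000 with a convergent one. With a same-strand neighbour that close, 4 of 11 members had a replicated 3′-end summit (pas-3, pbs-2, rpt-4 and rpn-3), against 6.50% of 4000 protein-coding genes in that position. With a convergent neighbour that close the count was 7 of 17 (pas-7, pbs-4, rpt-2, rpn-6.1, rpn-7, rpn-8 and rpn-11), against 6.13% of 5754. The pooled list gave 11 of 11 and 15 of 17, against 42.4% and 40.1%. The last one, rpt-1, had its same-strand neighbour farther away. At the 5′ end, 2 of 8 members with a same-strand gene that close had a replicated summit (rpn-10 and rpn-11), against 5.7% of 4003 protein-coding genes. With a divergent gene that close the count was 1 of 13 (rpn-3), against 7.75% of 2078. Since a summit between 2 genes counts for both, each is a value of the pair. By position alone, a summit at either end of a member cannot be told apart from one at the start or end of its neighbour.

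A promoter window here is the 5′-end window, from 500 bp before to 200 bp after the start of any transcript. The 4 summits at 3′ ends with a same-strand neighbour within 500 bp lay in promoter windows of that neighbour, chp-1, tba-2, F23F1.10 and mrpl-32. These were 4 of the 12 members with a replicated 3′-end summit. Over all protein-coding genes with such a summit, 272 of 894 (30.4%) had every one in the promoter window of another protein-coding gene. Leaving out summits in the promoter window of any other protein-coding gene kept 8 of 33 members at the 3′ end, against 3.11% of all protein-coding genes. In the pooled list this step kept 19 of 33, against 23.3%. The summits of pas-3, rpt-1 and rpt-2 lay within 200 bp of non-coding genes, and without such summits 9 of 33 members remained, against 3.90% of all protein-coding genes. Of the 12 summits, 7 were inside another protein-coding gene. The matching share over all protein-coding genes is not given here, so this count only describes positions. Whether neighbours or non-coding genes had a part in the members' summits was not tested.

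**Figure D5:**
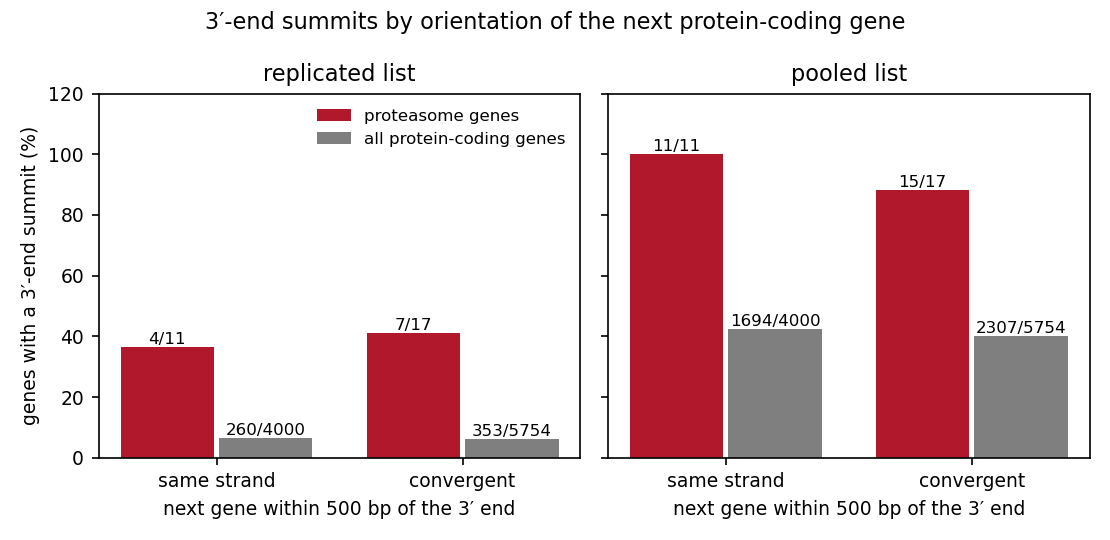
Share of genes (vertical axis, %) with a 3′-end summit in the replicated list (left) and the pooled list (right), for genes whose next protein-coding gene past the 3′ end lies within 500 bp or overlaps, on the same strand or convergent. Proteasome genes are red and all protein-coding genes grey, and the numbers above the bars give genes with a summit of genes in the class, for example 7 of 17 and 353 of 5754 for convergent neighbours in the replicated list.

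Promoters of proteasome genes were searched for TGTCAT and TATCAT, the core letters of elements bound by SKN-1, on either strand and from 250 bases before to 50 bases after the outermost 5′ end. TGTCAT was present in 12 of 33 members (36.4%) and in 16.3% of all 19973 promoters. TATCAT was present in 4 members (12.1%) and in 19.4% of all, and either of them in 15 (45.5%) and 32.3%. Of the 12 promoters with TGTCAT, 1 belonged to a gene with a replicated REPO-1 summit at the 5′ end, rpn-11, whose match lies 26 bases inside the gene. Matches in the gap before the gene are shown for 5 members with 10 bases on either side, on the gene's strand and with the match in capitals, where ATGACA is TGTCAT on the other strand. Those of pas-6 (chrV:5584522-5584547, minus strand), pbs-1 (chrIV:1709875-1709900, minus strand), rpt-2 (chrV:6017775-6017800, minus strand), rpn-2 (chrIII:6198944-6198969) and rpn-12 (chrII:11652980-11653005) lay 194, 145, 121, 230 and 134 bases upstream of the 5′ end.
pas-6 promoter: tcgcttatttTGTCATcctttcaaat
pbs-1 promoter: ttgagatttgATGACAatgttttttc
rpt-2 promoter: gcgcttgcatTGTCATcatcaacgct
rpn-2 promoter: ggacgaaattTGTCATtcgcaatcat
rpn-12 promoter: ctgccagaatTGTCATtgtgtcgatt

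Genes that act with the proteasome also had summits at both ends. Of 12 regulators and delivery factors, 5 had a replicated 3′-end summit (4.48% of all protein-coding genes) and 3 a 5′-end one (3.49%). The 3′-end summits were those of skn-1 (rank 343, 123 bp past the end), the shuttle factor gene rad-23 (rank 452, 178 bp), aip-1 (rank 1094), sel-11 (rank 1355), a ubiquitin ligase gene of the endoplasmic reticulum, and ddi-1 (rank 1600), whose product activates SKN-1. At the 5′ end were ubql-1 (rank 719), skn-1 itself (rank 858, 165 bp upstream) and the deubiquitinase gene usp-14 (rank 1210). Of 23 ubiquitin and segregase genes, 5 had a 3′-end summit and 6 a 5′-end one, against the same 4.48% and 3.49% of all protein-coding genes. The ubiquitin gene ubq-1 was the strongest at the 3′ end (rank 71, 139 bp past the end, signal 471.7), followed by the conjugating enzyme genes ubc-3 (rank 207), let-70 (rank 431) and ubc-13 (rank 1623) and by cdc-48.2 (rank 1520). cdc-48.1, which encodes a segregase that extracts ubiquitinated proteins, led at the 5′ end (rank 36, 155 bp upstream, signal 610.8), followed by the ubiquitin-activating enzyme gene uba-1 (rank 287), ubc-3 (rank 636), cul-4 (rank 1570), ubc-9 (rank 1733) and ufd-3 (rank 1774). In the pooled list, 10 of 12 and 21 of 23 had a 3′-end summit, against 30.5% of all protein-coding genes.

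Other multi-subunit complexes gave varied counts. The COP9 signalosome and eIF3, whose subunits resemble those of the lid, had a replicated 3′-end summit in 1 of 6 and 0 of 11 genes, the COP9 one being csn-5 (rank 343), against 4.48% of all protein-coding genes. The csn-5 summit is the same one as that of skn-1, with which csn-5 shares the region. At the 5′ end, 1 COP9 gene, csn-6 (rank 683), and 3 eIF3 genes, eif-3.C (rank 88), eif-3.B (rank 1209) and eif-3.I (rank 1713), had one, against 3.49% of all protein-coding genes. The CCT chaperonin, a ring complex that folds actin and tubulin, had 3 of 8 genes at the 3′ end (cct-7 at rank 243, cct-6 at 678 and cct-2 at 734) and 3 of 8 at the 5′ end (cct-8 at rank 14, cct-1 at 296 and cct-7 at 1555), against the same 4.48% and 3.49%. In the pooled list a 3′-end summit was present for 30 of 33 proteasome genes, against 3 of 6 COP9, 9 of 11 eIF3 and 8 of 8 CCT genes and 30.5% of all protein-coding genes. These lists are small and the differences between them were not tested.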

How the data were processed

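ChIP-seq peak lists of 2 replicates on ce11 (the WBcel235 assembly) were used, and the ce10 lists were not. Signal values and the −log10 of a q-value for each peak were deposited by the authors. Per the text files deposited with each sample, the lists are regions prepared as input for IDR and a list thresholded by IDR. Not given in the sources used here are the aligner, the caller, their versions and the IDR threshold. The −log10 q-value was tied at its maximum for 1354 of 1789 replicated summits, so ranks use the signal. Scales of different lists were not compared. All peaks lay within the chromosome lengths of the reference.

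Genes came from Ensembl release 115 and sequence from RefSeq. Summits were assigned in Python 3.11.15 with numpy 2.4.6 and pandas 2.3.3, and tested on simulated data. Coordinates are 1-based. Members, related lists and the naming rule (members with a replicated summit, the strongest of each class, catalytic subunits and paralogs, and neighbours at a named summit) were chosen with earlier results of these data known, and the TTTCAG search was added later. Sequences at some summits are not reported here. The symbols ubc-2 and csn-8 matched no gene. Counts cover complete gene sets, so no sampling interval is given. Whether peaks reflect REPO-1 itself or its tag was not examined.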

Additional observations from a re-analysis of the deposited data

How the results depend on the processing

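Counts of members with a replicated 3′-end summit were 10 to 13 of 33 with wider windows, the outermost ends, the nearest end only, whole regions or regions counted once. The share of all protein-coding genes at these settings was 3.67% to 5.42%. With a single replicate's strongest summits the counts were 13 to 15, against 4.46% to 4.48%. The count was 8 (against 3.11%) without summits in promoter windows of other protein-coding genes. It was 9 (against 3.90%) without summits within 200 bp of non-coding genes. Both steps were chosen after seeing the data, and summits inside other protein-coding genes were not left out. Counts at the 3′ end moved to 2 (against 2.02% of all protein-coding genes) in the window of 100 bp upstream to 200 bp downstream. They moved to 6 (against 2.33%) at or above the median signal. The 5′-end count moved to 1 (against 1.75%) in the window of 200 bp upstream to 100 bp downstream. Elsewhere the 5′-end count was 2 to 3 with single replicates included, against 1.95% to 4.62%. In the pooled list the narrow windows gave 11 at the 5′ end and 15 at the 3′ end, summits at or above the median signal gave 13 at the 5′ end, and summits outside other promoters gave 19 at the 3′ end. These alternatives count fewer summits or a smaller window by construction. Ranked by the q-value, both best members tied at a mean rank of 677. Among distinct regions the best ranks were 173 at the 5′ end and 108 at the 3′ end. In single replicates the best rank was 192 to 202 at the 5′ end and 100 to 113 at the 3′ end. No paired analysis was possible because there is 1 group. Depth is unknown, so a missing weak summit may be undetected.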

Other observations

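Some members border another gene of protein homeostasis. The summit before rpn-3 (rank 176) lies between it and the chaperone gene hsp-110. rpn-12 is divergent from rad-23, the gene of a ubiquitin shuttle factor, with a gap of 394 bp. In that gap neither gene had a pooled summit in its 5′-end window, while both had one at the 3′ end, rad-23 at rank 452 and rpn-12 at rank 2027.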
